A study of Arabidopsis thaliana with 40 samples.

Results

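The 10 loci described here are listed as induced when Arabidopsis runs out of oxygen, and they encode proteins of mostly unknown function. They were taken as a given list of loci, without a measured threshold, and are 10 of the 33592 loci in the count tables. The list holds HRU1 (AT3G03270), 3 proteins that RefSeq places in the wound-responsive family (AT4G10265, AT4G10270 and AT4G33560), the aluminium-induced protein AT4G27450, the short or uncharacterised proteins AT5G10040, AT1G33055, AT4G24110 and AT3G10020, and the hypoxia-responsive family protein AT3G05550.

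Plants sense low oxygen through group VII ethylene response factors. In air, plant cysteine oxidases mark these factors for the N-degron pathway and they are destroyed; without oxygen they persist and switch on a set of core hypoxia genes. Many of those genes encode the enzymes of ethanol fermentation or sugar use, but a sizeable share encode small proteins with no known activity. HRU1, short for HYPOXIA RESPONSIVE UNIVERSAL STRESS PROTEIN 1, is the best understood of the 10: it binds the small GTPase ROP2 and the NADPH oxidase RBOHD and shapes the burst of hydrogen peroxide at the onset of anoxia.

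Whole seedlings aged 9 days were either kept for 3 h in darkness or submerged for 3 h in darkness, so both conditions lack light. Col-0 is the wild type, and K48M is a line in the Col-0 background that overexpresses SnRK1.1 (KIN10), the catalytic subunit of the energy-sensing kinase SnRK1, with a lysine-to-methionine change; the sources used here give neither the driving promoter nor how many independent lines it stands for. RNA was sequenced as total mRNA and as the fraction bound to heavy polysomes, which carry many ribosomes, in 16 libraries forming 8 groups of 2. Replicate 1 of each group belongs to a library set named ST_FR and replicate 2 to a set named LTF_GG, and the series text calls the repeats independent biological ones. A further 24 samples, which include the eIFiso4G1 lines i4g1-2 and 4A-15, enter only through the authors' deposited folds.

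The libraries held 3.75 to 6.77 M gene reads each. The libraries of the K48M total pair of replicate 2 carry opposite conditions in the sample titles and in the column headers; they were left out of the tests, which leaves 1 library in each K48M total group, and are given by column header where they appear. KIN10 itself ran from 25.9 to 36.8 CPM (reads per 1e6 gene reads after TMM scaling) in the 8 Col-0 libraries and from 232 to 1545 CPM in the 8 K48M libraries. Col-0 polysome dark replicate 1 stood apart with the fewest gene reads and the lowest share of reads unique to a single model, 54.4%. The green-tissue genes LHCB1.1 and RBCS1A were at 1806 CPM or more in every library, and neither was called in a submergence response; of the 2 root genes, CYP71A16 fell in Col-0 total RNA by 3.52 on the log2 scale (adjusted p = 0.00022, edgeR) and PYK10 by 1.08 (adjusted p = 0.0144, edgeR). The part of the root genes in the responses was not tested. In whole seedlings, fewer cells of a type and less RNA per cell cannot be told apart.

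The promoters of 4 loci are shown: the tandem pair, whose promoters hold the longer pattern described after them, HRU1, the best understood locus, and AT5G10040, the locus with the largest response. The windows run from 250 bases before the annotated start to 30 bases after it in RefSeq's TAIR10.1 annotation, and AAACCA is in capitals. They lie at chr4:6373638-6373917, minus strand (AT4G10265), chr4:6374484-6374763, plus strand (AT4G10270), chr3:763340-763619, minus strand (HRU1) and chr5:3143473-3143752, plus strand (AT5G10040).

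AT4G10265: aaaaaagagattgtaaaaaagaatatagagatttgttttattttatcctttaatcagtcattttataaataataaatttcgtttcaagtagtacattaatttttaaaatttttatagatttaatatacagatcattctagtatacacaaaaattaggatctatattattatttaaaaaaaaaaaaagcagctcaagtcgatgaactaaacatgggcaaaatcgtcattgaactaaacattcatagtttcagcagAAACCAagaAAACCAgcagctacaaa
AT4G10270: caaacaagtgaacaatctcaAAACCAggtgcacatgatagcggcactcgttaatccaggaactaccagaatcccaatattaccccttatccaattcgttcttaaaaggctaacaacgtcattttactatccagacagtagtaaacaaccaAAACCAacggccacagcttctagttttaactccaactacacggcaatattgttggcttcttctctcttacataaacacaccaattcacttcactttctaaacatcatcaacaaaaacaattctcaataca
HRU1: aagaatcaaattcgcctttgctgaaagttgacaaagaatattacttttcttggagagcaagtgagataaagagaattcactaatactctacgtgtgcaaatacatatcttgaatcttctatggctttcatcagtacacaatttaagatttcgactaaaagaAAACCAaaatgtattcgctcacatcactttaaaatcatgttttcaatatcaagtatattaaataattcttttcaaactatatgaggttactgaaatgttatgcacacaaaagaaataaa
AT5G10040: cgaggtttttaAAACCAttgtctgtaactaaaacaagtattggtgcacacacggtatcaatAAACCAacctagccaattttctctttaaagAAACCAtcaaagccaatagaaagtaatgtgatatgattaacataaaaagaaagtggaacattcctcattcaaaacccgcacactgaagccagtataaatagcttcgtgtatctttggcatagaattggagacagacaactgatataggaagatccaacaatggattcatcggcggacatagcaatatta

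AAACCA, read on both strands in windows of 300 bases that reach 50 bases past the start, was present in 9 of the 10 promoters and in 32.0% of 27443 annotated promoters. Followed by any 3 bases and then GC, it was searched as a short form of the hypoxia-responsive promoter element to which group VII factors bind. That longer pattern, which overlaps AAACCA, occurred in 2 of the 10, both in the tandem pair, and in 1.04% of all promoters. AT4G10270 held it at positions -230 and -100 counted from the start, and AT4G10265 at position 14. AT5G10040 held 3 copies of AAACCA without the longer pattern. AT3G05550, whose RNA was hardly detected, also held a copy of AAACCA. The G-box CACGTG was in none of the 10 and in 7.68% of all promoters, and GAANNTTC, the core of the heat shock element, was in 3 of the 10 and in 11.6% of all. A match describes letters and not a bound site.

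AT4G10265 (chr4:6373008-6373667, minus strand) and AT4G10270 (chr4:6374734-6375210, plus strand) are single-exon neighbours that point away from each other with 1066 bases between their starts. Their coding sequences were 72.2% identical over 273 aligned bases, and all reads of both were unique to their model, so the counting did not split reads between them. AT3G05550 had the closest relative outside the list, AT5G27760, at 82.6% over 264 bases. AT4G10270, AT4G27450, AT5G10040 and AT1G33055 overlap another annotated gene. The sources used here do not say whether counting used strand, so how reads in the shared stretch were assigned is unknown. AT1G33055 and AT1G33050 lie on the same strand, so counting by strand could not separate them there. The genes that overlap AT4G10270, AT4G27450 and AT5G10040 lie on the opposite strand. AT4G10280 had 24 to 120 reads per library beside 54 to 13280 for AT4G10270, and AT5G10030 had 35 to 219 beside 0 to 1000 for AT5G10040. AT4G27440 had 448 to 4377 reads beside 663 to 46684 for AT4G27450. AT1G33050 had 90 to 2701 reads, a range close to the 34 to 2155 of AT1G33055. All reads of these 4 loci were unique to their model.

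Submergence raised 9 of these loci together. Together the 10 loci made up 0.0444% to 0.0773% of a dark library's gene reads and 0.558% to 1.11% of a submerged one's, with no overlap between the conditions by column header. All 9 loci that passed the filter on low counts rose in Col-0 total RNA at an adjusted p under 0.05 (edgeR's quasi-likelihood test with Benjamini-Hochberg adjustment over 19436 genes, which is used for every adjusted p below unless another source is named), where 7.44% of all tested genes were called higher and 4.59% lower. In Col-0 polysome RNA 9 of 9 rose beside 6.33% of all genes higher and 4.37% lower. In K48M polysome RNA it was 9 of 9 beside 7.58% and 6.04%, and in K48M total RNA 8 of 9 beside 3.34% and 1.84%. Each K48M total group is 1 library in the fit, so its errors and p-values assume that it varies like the other groups. None of the 9 was called lower in these fits. The median log2 fold change of the 9 in total RNA was 4.77 for Col-0 and 4.29 for K48M. In polysome RNA it was 4.46 and 4.30, where the median of all tested genes was between -0.02 and 0.01. A filter on low counts keeps a locus through its high group, and the list was assembled from hypoxia-induced genes, so these counts are a description of known responders. Without the library set as a term in the fit, 6 of 9 loci were called in both fractions of Col-0 and in K48M polysomes. The number of all genes called higher fell as well, from 1446 to 365 in Col-0 total RNA. In polysome RNA it fell from 1230 to 298 for Col-0 and from 1473 to 407 for K48M. In K48M total RNA, where each group is 1 library, fewer loci and fewer genes were called too.

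**Figure D1:**
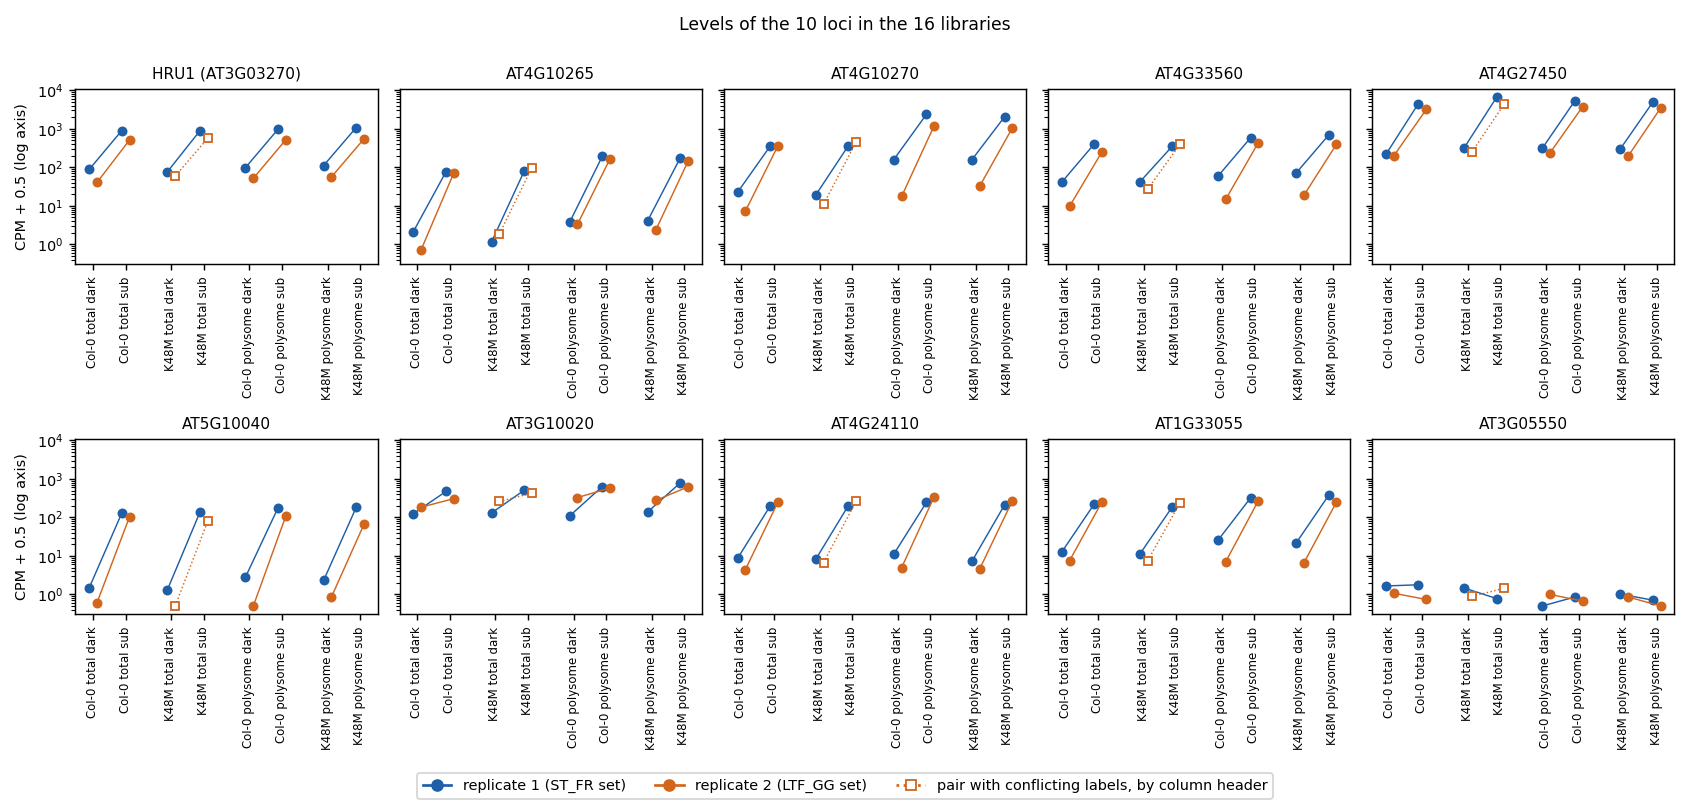
Level of each of the 10 loci in each library as CPM plus 0.5 on a log axis, with lines joining the dark and submerged (sub) library of the same set and genotype; blue is replicate 1, orange replicate 2, and open squares are the pair with conflicting labels placed by column header. The submerged points lie above the dark points for 9 loci in every pair, least for AT3G10020, while AT3G05550 stays between 0 and 1.28 CPM.

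HRU1, the universal stress protein, rose with the smallest standard error of the 9 tested loci in Col-0 total RNA, although its levels differed between the replicates. Its level in Col-0 total RNA was 87.6 and 40.1 CPM in the dark and 902 and 517 CPM under water, replicate 1 first. In Col-0 polysome RNA it was 98.1 and 51.1 CPM in the dark and 977 and 523 CPM under water. Each submerged library was above every dark library, and replicate 1 was the higher of both replicates in each group. The log2 fold change was 3.53 ± 0.22 (SE; adjusted p = 5.84e-07) in Col-0 total and 3.33 ± 0.21 (adjusted p = 7.76e-07) in Col-0 polysome RNA.

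The HRU1 response of K48M was close to that of Col-0. Total RNA held 75.9 CPM in the dark and 891 CPM under water in replicate 1, and polysome RNA 111 and 55.8 CPM in the dark and 1079 and 549 CPM under water. The log2 fold changes were 3.56 ± 0.30 (adjusted p = 4.82e-05) and 3.27 ± 0.21 (adjusted p = 7.53e-07). The pair with conflicting labels gave 58.6 CPM in the library its header calls dark and 568 CPM in the one it calls submerged, which lies within the ranges of the other dark and submerged libraries. HRU1 has 2 annotated models, 67.5% of its reads were unique to 1 of them, and model 2 took most reads in every library. Model 1 held between 0% and 2.57% of the reads in the libraries dark by header and between 2.41% and 2.93% in the submerged ones.

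The known partners of HRU1, RBOHD and ROP2, and the ROP regulator RopGAP4 did not move as a group. RBOHD, the NADPH oxidase, rose by a log2 fold change of 3.13 ± 0.21 in Col-0 total RNA (adjusted p = 9.28e-07) and 2.97 ± 0.21 in K48M polysome RNA (adjusted p = 1.76e-06). ROP2, the GTPase, had log2 values between -0.29 and 0.05 and was called in none of the 4 responses. RopGAP4, which switches ROP signalling off, fell by 1.25 in Col-0 total RNA (adjusted p = 0.00947) and by 1.01 in Col-0 polysome RNA (adjusted p = 0.046), and its K48M values of -0.68 and -0.30 did not pass. Relatives were taken as loci that RefSeq names universal stress protein or, like HRU1, adenine nucleotide alpha hydrolases. Of the 30 tested, 3 rose and 2 fell in Col-0 total RNA, with a median log2 value of 0.05. AT3G11930 was the most changed of those called there, at 1.86 ± 0.23 (adjusted p = 0.000133), well short of HRU1.

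The RNA of both wound-responsive family genes of the tandem pair rose strongly, that of AT4G10265 from a few reads per library. AT4G10265 had 1.65 and 0.23 CPM in Col-0 total RNA in the dark and 76.1 and 70.6 CPM under water. AT4G10270 had 22.0 and 6.78 CPM in the dark and 353 and 361 CPM under water. The groups did not overlap for either gene. The log2 fold change was 6.43 ± 0.40 (adjusted p = 5.84e-07) for AT4G10265, the 9th largest of 19436 genes, and 5.04 ± 0.61 (adjusted p = 0.000132) for AT4G10270. Leaving out Col-0 total dark replicate 2 gave 5.59 for AT4G10265 and leaving out dark replicate 1 gave 8.06. For AT4G10270 the range was 3.97, without Col-0 total submerged replicate 2, to 5.76, without submerged replicate 1. In K48M total RNA the values were 6.86 ± 0.60 (adjusted p = 4.88e-05) and 4.29 ± 0.83 (adjusted p = 0.00918).

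In polysome RNA the pair stood higher still. AT4G10270 reached 2365 and 1213 CPM in submerged Col-0 polysomes from 159 and 17.1 CPM in the dark, and 2041 and 1055 CPM in submerged K48M polysomes from 158 and 32.2 CPM. AT4G10265 reached 191 and 166 CPM in Col-0 polysomes from 3.25 and 2.82 CPM, and 178 and 145 CPM in K48M polysomes from 3.65 and 1.80 CPM. The dark level of AT4G10270 in polysomes differed between the replicates by 3.18 in Col-0 and 2.27 in K48M on the log2(CPM + 0.5) scale, and its response was 3.89 in replicate 1 and 6.11 in replicate 2 on that scale in Col-0. The fitted log2 fold changes of AT4G10270 were 4.79 ± 0.60 (adjusted p = 0.000187) in Col-0 and 4.30 ± 0.58 (adjusted p = 0.000293) in K48M polysomes. Without Col-0 polysome dark replicate 1 the Col-0 value was 6.05, and without Col-0 polysome dark replicate 2 it was 3.98; both kept an adjusted p under 0.05.

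AT4G33560, the third member of the wound-responsive family, lies elsewhere on chromosome 4. It had 40.5 and 9.19 CPM in Col-0 total RNA in the dark and 405 and 255 CPM under water, with a log2 fold change of 4.00 ± 0.43 (adjusted p = 4.21e-05). The 4 submergence responses ran from 3.11 in K48M total to 4.13 in Col-0 polysome RNA. Of 9 other loci that RefSeq names wound-responsive, 7 were tested, none rose in the total RNA of either line, and AT1G21610 alone was called in Col-0 polysome RNA, at 0.83 ± 0.22 (adjusted p = 0.0244). AT4G05070, the nearest of them in coding sequence to AT4G10265, had a Col-0 total log2 value of 0.26 ± 0.33 (adjusted p = 0.679).

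AT4G27450, an aluminium-induced protein with YGL and LRDR motifs in its RefSeq name, held the most reads of the list in every submerged library. Reads are not corrected for model length here. Its own share of gene reads was 0.0177% to 0.0319% in dark libraries and 0.356% to 0.725% in submerged ones. Col-0 total RNA held 216 and 197 CPM in the dark and 4541 and 3184 CPM under water, and K48M total RNA 316 and 6593 CPM in replicate 1. In total RNA the log2 fold change was 4.20 ± 0.26 for Col-0 (adjusted p = 5.84e-07) and 4.39 ± 0.37 for K48M (adjusted p = 4.82e-05). In polysome RNA it was 4.03 ± 0.26 for Col-0 (adjusted p = 7.6e-07) and 4.09 ± 0.26 for K48M (adjusted p = 5.69e-07). Its replicates lay close together, and leaving out single libraries gave 4.03 to 4.39 in Col-0 total and 3.99 to 4.08 in Col-0 polysome RNA.

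Relatives of AT4G27450 moved less. Of 4 other loci of that name, AT5G19140 rose in all 4 responses, by 1.76 ± 0.30 in Col-0 total RNA (adjusted p = 0.00186). AT3G15450, whose coding sequence was 70.1% identical over 749 bases, rose in 3 of the 4, by 1.06 ± 0.28 in Col-0 polysome RNA (adjusted p = 0.0263), and had 0.74 ± 0.28 in Col-0 total RNA (adjusted p = 0.108). AT3G22850 and AT5G43830 were called in none.

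AT5G10040, an uncharacterised single-exon gene (chr5:3143723-3144157, plus strand), had the largest response of the list. The dark libraries held between 0 and 7 reads each by column header and the submerged ones between 312 and 1000. In Col-0 total RNA that was 6 and 1 reads against 602 and 868 reads, and in Col-0 polysome RNA 5 and 0 against 1000 and 621. The fitted log2 fold change was 7.92 ± 0.57 in Col-0 total (adjusted p = 1.91e-06), the 3rd largest of 19436 genes, and 6.81 ± 0.55 in K48M polysome RNA (adjusted p = 4.97e-06). Its size rests on very few dark reads: without Col-0 polysome dark replicate 1, which leaves 0 dark reads, the Col-0 polysome value moved from 7.60 to 12.2, which is no bound. Without Col-0 total dark replicate 1 the Col-0 total value was 9.28.

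AT1G33055, uncharacterised, and AT4G24110, an unknown protein in the deposited files that RefSeq names as an NADP-specific glutamate dehydrogenase, followed a similar course. AT1G33055 had 12.1 and 7.01 CPM in Col-0 total RNA in the dark and 223 and 258 CPM under water, with a log2 fold change of 4.77 ± 0.44 (adjusted p = 1.51e-05). AT4G24110 had 8.10 and 3.91 CPM in the dark and 197 and 249 CPM under water, with 5.26 ± 0.42 (adjusted p = 4.56e-06). Their 4 responses ran from 4.14 to 4.77 and from 4.71 to 5.47.

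AT3G10020, a small protein whose RNA was already present in the dark, responded least and least evenly. Col-0 total RNA held 125 and 184 CPM in the dark and 471 and 307 CPM under water, and Col-0 polysome RNA 109 and 328 CPM in the dark and 632 and 580 CPM under water. Submerged libraries were above dark ones within each group pair, but replicate 1 had the lower dark level and replicate 2 the higher. The log2 fold change was 1.40 ± 0.42 in Col-0 total RNA (adjusted p = 0.0434). In polysome RNA it was 1.54 ± 0.42 for Col-0 (adjusted p = 0.0321) and 1.83 ± 0.42 for K48M (adjusted p = 0.0114). In K48M total RNA 1.96 ± 0.60 did not pass (adjusted p = 0.0782). The Col-0 total call was kept in 5 of 12 fits that each left out 1 library, the Col-0 polysome call in 8 and the K48M polysome call in 10. The lowest Col-0 total value was 0.75 (adjusted p = 0.236), without Col-0 total submerged replicate 1. Without Col-0 polysome dark replicate 1 the Col-0 polysome value was 0.92 (adjusted p = 0.255). DESeq2 also gave no call in Col-0 total RNA (adjusted p = 0.155) or in Col-0 polysome RNA (adjusted p = 0.0947). Only 52.1% of its reads were unique to 1 of its 2 models.

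AT3G05550, a hypoxia-responsive family protein, was the exception. It had between 0 and 7 reads in a library and 45 reads over all 16, and did not pass the filter. Fitted without a filter on low counts, its log2 values were -0.35 (adjusted p = 0.908) in Col-0 total and -1.93 (adjusted p = 0.565) in K48M polysome RNA, so no response was detectable at this depth. Its nearest relative AT5G27760, of the same family, was expressed at 22.8 to 174 CPM and had 0.79 ± 0.34 in Col-0 total RNA (adjusted p = 0.152).

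**Figure D2:**
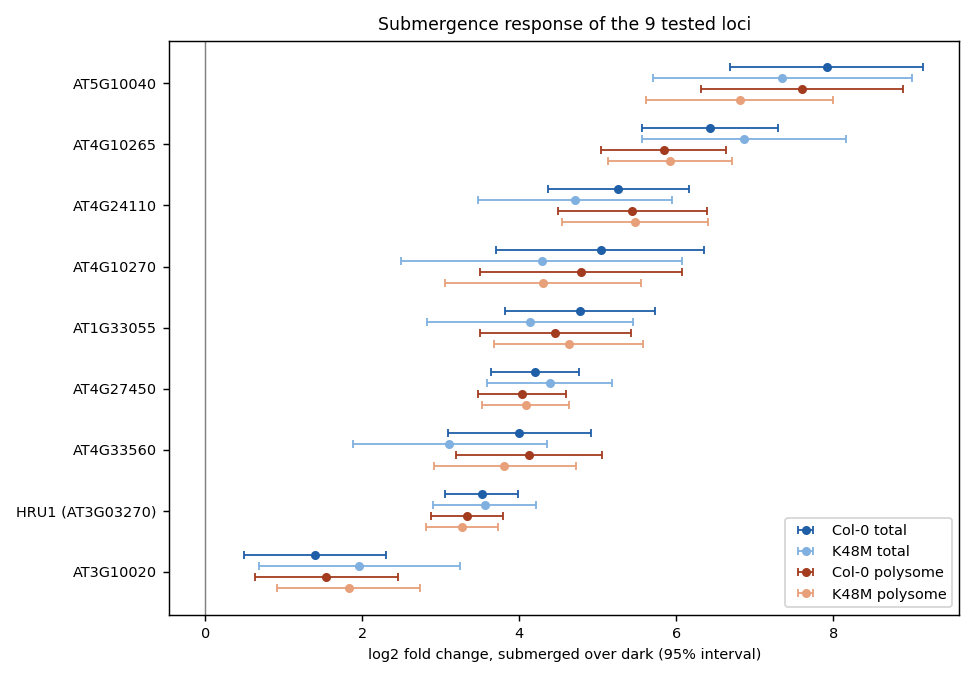
Log2 fold change of submerged over dark for the 9 tested loci in 4 comparisons, with 95% intervals from edgeR; loci are ordered by their Col-0 total value. The intervals of the 4 comparisons overlap for each locus, and the values run from 1.40 for AT3G10020 to 7.92 for AT5G10040 in Col-0 total RNA.

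Per kilobase of model the order of the levels differed from the order of the responses. In submerged Col-0 total RNA the mean was 3397 reads per kilobase and per 1e6 reads for AT4G27450, 953 for HRU1, 749 for AT4G10270, 641 for AT4G33560 and 537 for AT3G10020. AT5G10040, AT4G24110, AT1G33055 and AT4G10265 followed at 268, 253, 189 and 167. In submerged Col-0 polysome RNA AT4G10270 stood at 3751, beside 3964 for AT4G27450 and 1008 for HRU1. There AT4G10270 was above AT4G27450 in replicate 1 (4959 and 4645) and below it in replicate 2 (2544 and 3283). In the dark AT3G10020 led in Col-0 total RNA at 213, followed by AT4G27450 at 181. AT3G10020 ranged over 172 and 254 and AT4G27450 over 190 and 173 in the 2 dark libraries, so their order is within that spread. AT3G05550, whose model in the tables covers the coding length alone, had group means of at most 3.32.

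The library sets differed in the dark baseline of these loci. In each of the 3 dark groups with 2 libraries, 8 of the 9 tested loci were higher in replicate 1 than in replicate 2, and AT3G10020 was lower. The gap was 3.18 on the log2(CPM + 0.5) scale for AT4G10270 in Col-0 polysomes and between 1.91 and 2.08 for AT4G33560, but between 0.13 and 0.63 for AT4G27450. How many of all genes were also higher in replicate 1 was not counted, and what set the dark level apart was not tested. The responses of AT4G10270, AT4G33560, AT1G33055 and AT4G24110 were larger in replicate 2 in all 4 kinds of sample, whereas HRU1 and AT4G27450 differed by at most 0.38 between the replicates.

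**Figure D3:**
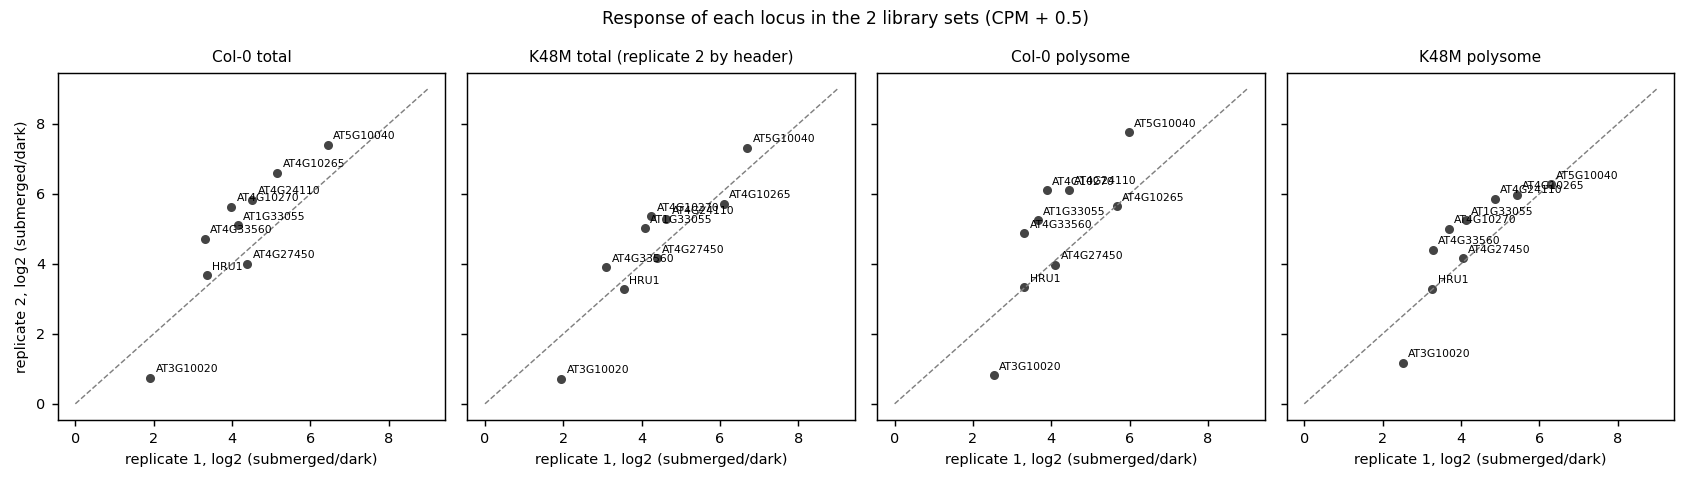
Response of each locus in replicate 1 (x axis) and replicate 2 (y axis), as log2 of submerged over dark CPM plus 0.5, in the 4 kinds of sample; the dashed line marks equal values and K48M total replicate 2 is taken by column header. AT4G10270 lies above the line (3.98 and 5.63 in Col-0 total RNA), AT3G10020 below it (1.91 and 0.74), and HRU1 close to it (3.36 and 3.67).

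K48M was compared with Col-0 to ask whether the SnRK1 line alters these responses. For the difference of the responses, 0 of 9 loci and 0% of all genes were called in total RNA and 0 of 9 and 0% in polysome RNA; at an unadjusted p under 0.05 there were 0 of the 9 and 505 of 19436 genes in total and 0 and 255 in polysome RNA. DESeq2 called 0 of 9 in both. The differences, K48M minus Col-0, ran from -0.89 (AT4G33560; 95% interval -2.31 to 0.53) to 0.56 (AT3G10020; -0.97 to 2.08) in total RNA and from -0.78 (AT5G10040; -3.18 to 1.62) to 0.29 (AT3G10020; -0.95 to 1.53) in polysome RNA. For HRU1 the polysome difference had an interval from -0.66 to 0.54. Over the 9 loci the bounds reached -3.16 and 2.38 in total and -3.18 and 1.62 in polysome RNA, so sizeable differences in either direction were not detectable.

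The levels themselves were also compared between the lines. In the 4 comparisons of K48M with Col-0, 0 of 9 loci were called, and 1 gene of all, KIN10, was higher in each (0.00515% of those tested). AT4G27450 came nearest in submerged total RNA, at 0.57 ± 0.28 (adjusted p = 0.671; 95% interval -0.04 to 1.17), where the K48M group is a single library.

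Polysome and total RNA were compared to see how the transcripts are distributed. AT4G10270 stood out as polysome-rich in each of 8 library pairs, by 1.22 to 3.06 on the log2(CPM + 0.5) scale, and AT4G10265 was higher in polysomes in 8 of 8 pairs, by 0.31 to 2.19. For AT4G10270 the values were 2.50 to 3.06 in the replicate 1 pairs and 1.22 to 1.75 in the replicate 2 pairs. In the column headers the replicate 1 polysome libraries carry a different lane code from all other libraries. The part of the lane in these values was not tested. The fitted value for AT4G10270 was 2.32 ± 0.57 in Col-0 dark (adjusted p = 0.0498) and 2.75 ± 0.75 in K48M dark (adjusted p = 0.0494), which passed, and 2.07 ± 0.52 in Col-0 submerged (adjusted p = 0.0548) and 2.76 ± 0.73 in K48M submerged (adjusted p = 0.0584), which did not. AT4G10265 passed in Col-0 submerged only, at 1.26 ± 0.27 (adjusted p = 0.0293), with 1.86 ± 0.55 (adjusted p = 0.092), 2.16 ± 0.74 (adjusted p = 0.0979) and 1.21 ± 0.35 (adjusted p = 0.0751) in Col-0 dark, K48M dark and K48M submerged. That makes 1, 1, 1 and 0 loci called higher of 9, beside 1.54% of all genes in Col-0 dark, 1.11% in Col-0 submerged, 2.8% in K48M dark and 1.23% in K48M submerged. None of the 9 was called lower, beside 0.839%, 1.28%, 2.45% and 1.57% of all genes. These calls sit at the threshold: without the library-set term, or without some single libraries, none was left in a given comparison, while the 8 values of this pair stayed at 0.86 or more under every alternative run. In Col-0 dark, AT4G10270 had 1.01 without polysome dark replicate 1 and 3.09 without polysome dark replicate 2, and AT4G10265 had 1.01 without total dark replicate 2 and 3.47 without total dark replicate 1. In Col-0 submerged, AT4G10270 had 1.40 without total submerged replicate 1 and 3.20 without total submerged replicate 2. The K48M total libraries in the fit are of replicate 1 alone. With 16 libraries and header conditions, AT4G10270 had 2.47 in K48M dark and 1.69 in K48M submerged.

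**Figure D4:**
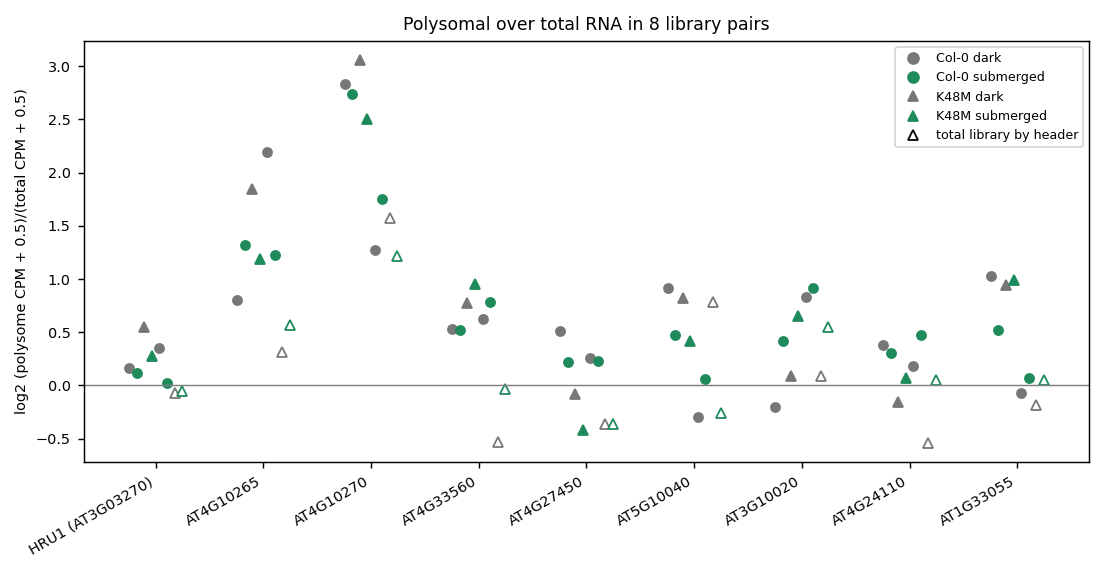
Log2 of polysome over total CPM plus 0.5 for 9 loci, 1 point for each of 8 library pairs of the same set, line and condition; open symbols mark pairs whose total library is placed by column header. AT4G10270 and AT4G10265 lie above 0 in all 8 pairs, and the other loci scatter around or slightly above 0.

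The other 7 loci lay nearer to even. In K48M submerged AT4G33560 had 1.20 ± 0.49 (adjusted p = 0.178) and AT1G33055 1.05 ± 0.48 (adjusted p = 0.222). HRU1 and AT4G27450 stayed within 0.55 of equal on the log2(CPM + 0.5) scale in the 8 pairs. TMM scaling sets the typical gene of each fraction to equal, so these values are relative to the other mRNAs and not to the amount on polysomes.

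A change of polysome loading under submergence, the polysome response minus the total response, was called for 0 of 9 loci in either line, beside 0% of all genes. At an unadjusted p under 0.05 there were 0 of the 9 in each line, with 290 genes of all in Col-0 and 575 in K48M, and DESeq2 called 0 of the 9. HRU1 had -0.20 (95% interval -0.80 to 0.40) in Col-0 and -0.29 (-1.02 to 0.44) in K48M. The widest departures were -0.95 for AT4G10265 (-2.72 to 0.83) and 0.76 for AT4G24110 (-0.69 to 2.21), both in K48M.

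The authors' deposited workbook adds the lines i4g1-2 and 4A-15, for which it gives log2 fold changes of submergence against control without an error of its own. It lists 10 models of 9 loci, all but AT3G05550. In total RNA the median over the 10 models in the authors' deposited table was 4.89 in Col-0, 4.47 in K48M, 4.15 in i4g1-2 and 4.83 in 4A-15. The median difference from Col-0 in the authors' deposited table was -0.34 for K48M (8 of 10 models below), -0.64 for i4g1-2 (9 of 10) and -0.11 for 4A-15 (6 of 10), where all 8391 models had -0.01, 0.04 and 0.02. The authors' deposited count table, which holds Col-0 and K48M only, gave a median of -0.04 for K48M over the 10 models, with 6 below and 4 above. In the workbook AT5G10040 led in Col-0, K48M, i4g1-2 and 4A-15, with 8.54, 8.05, 7.23 and 9.03. AT3G10020 was lowest, with 1.05, 1.28, 0.98 and 0.79.

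In polysome RNA the authors' deposited workbook had lower folds in each of the 3 lines than in Col-0 for 10 of 10 models. The median difference from Col-0 was -1.12 in K48M, -0.98 in i4g1-2 and -0.83 in 4A-15. Over all 8391 models in that table the same median was -1.29, -0.68 and -0.73, so most listed models were shifted with the 10 loci. All lines share the Col-0 values as their reference.

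The K48M polysome column of the workbook did not match the authors' other table. For the same 4 libraries, the authors' deposited count table gave folds that, as log2, exceeded the workbook's by a median of 1.30 over 8387 models, since the workbook minus count table median was -1.30 with quartiles of -1.45 and -1.14. For the 10 models the median gap was -1.04. In total RNA the median gap of the 10 models was 0.04 for K48M and 0.23 for Col-0. In the authors' deposited count table the K48M polysome fold was above that of Col-0 for 6 of the 10 models and below for 4, so the direction seen in the workbook did not hold there. AT4G10270, for example, had 3.24 in the workbook and 4.02 in the count table, both from the authors' deposited tables, beside 4.30 in the fit here. The reason was not tested.

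**Figure D5:**
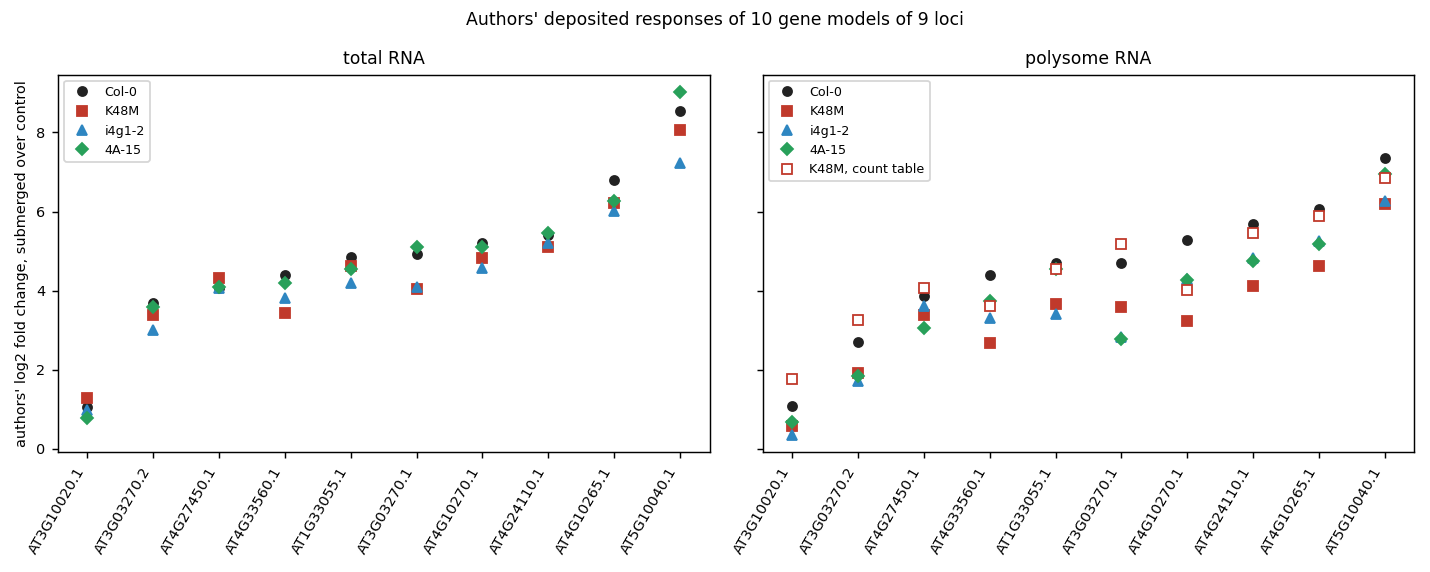
The authors' deposited log2 fold changes of submerged over control for 10 models of 9 loci in 4 lines, total RNA on the left and polysome RNA on the right; open squares are the K48M polysome values of the authors' count table. In total RNA i4g1-2 lies below Col-0 for 9 of 10 models, and in polysome RNA the filled K48M squares lie below the open ones, the workbook minus count table values running from -1.59 to -0.66.

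Of the 10 loci, HRU1 alone appears in the authors' deposited list of changed translational status, a score whose formula is not stated. In the authors' deposited table the status of HRU1 model 2 went from -1.35 in the dark to -2.98 under water in Col-0 (p = 0.0363), from -1.54 to -2.90 in K48M (p = 0.0443), from -1.33 to -2.58 in 4A-15 (p = 0.0465) and from -1.30 to -2.58 in i4g1-2. The count-based change of polysome loading for HRU1 was -0.2 (interval -0.8 to 0.4) in Col-0 and -0.29 (interval -1.02 to 0.44) in K48M. Since the formula of the score is not stated, its sign and size cannot be compared with these values. The authors' deposited lists of genes that depend on SnRK1 but not on eIFiso4G1 hold AT4G10265, AT4G10270 and AT5G10040. In that order, the responses fitted here differed, K48M minus Col-0, by 0.43, -0.75 and -0.56 in total RNA. Each K48M total group is 1 library in that fit. With 16 libraries and header conditions the total RNA differences were 0.05, 0.08 and 0.05. In polysome RNA the differences were 0.08, -0.49 and -0.78, and none was called. The authors' list of translationally regulated genes holds AT4G24110. Their list of core hypoxia genes holds AT4G10270, AT4G33560, AT4G24110 and AT1G33055.

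Other genes of low-oxygen sensing were set beside the 10 loci. Of 17 core hypoxia genes of known role, 17 rose in Col-0 total RNA with a median log2 fold change of 4.05. This count describes known responders, and 7.44% of all tested genes were called higher and 4.59% lower in Col-0 total RNA. Of 14 oxygen-sensing genes, 6 rose there and none fell: HRE2, a group VII factor that is itself hypoxia-induced, rose by 5.83 ± 0.38 (adjusted p = 9.04e-07), PCO2, a plant cysteine oxidase, by 5.18 ± 0.43 (adjusted p = 6.75e-06) and HRA1, which restrains RAP2.12, by 4.98 ± 0.52 (adjusted p = 3.86e-05). RAP2.12, the constitutive activator, had -0.02 ± 0.23 (adjusted p = 0.978).

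The loci tracked each other closely over the 14 libraries. The correlation (Pearson's r of z-scored log2 CPM) of each tested locus with the mean of the other 8 ran from 0.926 to 0.989, except 0.809 for AT3G10020. The genes outside the list most like their mean profile were AT4G39675 (r = 0.996), HRE2 (0.993), AT5G66985 (0.992), AT1G29670 (0.992) and AT3G23170 (0.991). These values mostly reflect the split of the libraries into dark and submerged, which all of them share.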

How the data were processed

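Read counts for each transcript model, as total and unique gene reads, are the values the authors deposited, and per the file headers the read pairs were trimmed. The submitters' processing notes name TAIR10; the sources used here do not name an aligner or say whether counting used strand. Those deposited tables also hold the authors' EDGE result, a p-value after FDR correction beside a signed fold change (a score), per the file headers. The workbook holds the authors' log2 fold changes, p-values and a translational status score, per the file headers.

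Reads of 41660 models were summed to 33592 loci, leaving out 11 rows in each table whose identifiers were removed (0.0084% of the reads or less). The 14 libraries were fitted with edgeR 4.0.16 in R 4.3.3: TMM scaling, filterByExpr (minimum count 10, minimum total 15), group plus library set as terms, and a quasi-likelihood F test with 5 residual degrees of freedom. An adjusted p under 0.05 over 19436 genes was a call. A standard error is the absolute log2 value over the square root of F. P-values measure the spread between these libraries, and the 2 libraries in a group limit precision. Library ratios used CPM + 0.5.

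The library set is the replicate block. Deviations from the group means correlated within a set for 15 of 15 pairs of groups (r 0.319 to 0.638), and the pairing comes from the set names in the titles. The code was tested on simulated data. Alternatives were no block, 16 libraries with header conditions, RLE scaling, DESeq2 1.42.0, no low-count filter, unique reads and leaving out each library in turn. The members and gene lists were chosen with earlier results of these data known. The genes named are the 10 loci, the 5 most similar in profile, and members of the pathway and family lists. Sequences come from RefSeq's TAIR10.1 assembly, where all 10 loci matched by locus code. Protein sequences were not used here. Promoter sequences are printed for 4 of the 10 loci.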

Additional observations from a re-analysis of the deposited data

How the results depend on the processing

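The 4 submergence responses of the 9 loci kept their direction under every alternative run. A tally was made for 55 member results, which do not include every one named in the text. Of its 990 values 902 kept both direction and side of the threshold, 60 fell short of it, 22 newly passed and 6 reversed. None of the 6 was called in either fit. Over all 144 member comparisons, 138 of 2592 alternative values changed sign, in 65 comparisons, none of them called in either fit. The difference in total RNA for AT3G10020 was -0.07 with header conditions. Outside that tally, the total RNA differences of AT4G10270 and AT5G10040 also changed sign. They were 0.08 and 0.05 with header conditions, against -0.75 and -0.56 in the fit of 14 libraries. The polysome difference for AT3G10020 was -0.04 without K48M polysome dark replicate 1, -0.17 without K48M polysome submerged replicate 1 and -0.65 without Col-0 polysome dark replicate 2, against 0.86 without Col-0 polysome dark replicate 1. For AT5G10040 it was 0.09 without K48M polysome dark replicate 1 and 0.47 without Col-0 polysome dark replicate 2, against -5.4 without Col-0 polysome dark replicate 1, which leaves 0 dark reads there.

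Without the replicate block, members called higher were 3 in K48M total RNA, and 0 in the polysome against total comparisons. Over all genes the responses without the block in total RNA had 365 higher and 102 lower for Col-0 and 50 and 4 for K48M; those in polysome RNA had 298 and 67 for Col-0 and 407 and 100 for K48M, and all polysome against total counts were 0. With header conditions the responses had 502 genes lower for total and 387 for polysome RNA of Col-0 and 531 for K48M polysomes, and K48M total had 1018 higher and 635 lower. Polysome against total then gave 0 members in Col-0, 0 genes higher and 2 lower in Col-0 dark, 7 higher and 28 lower in Col-0 submerged and 316 higher in K48M dark. DESeq2 gave 1 gene lower for the difference in total RNA and 1 lower for K48M against Col-0 in dark total, 485 and 389 higher in polysome against total for Col-0 dark and submerged, and 0 members in K48M dark. With no low-count filter K48M against Col-0 in submerged polysome had 2 genes higher, and polysome against total had 455 higher in Col-0 dark, 397 higher and 446 lower in Col-0 submerged, and 389 higher and 459 lower in K48M submerged, with 2 members in each submerged comparison. Unique reads gave 0 genes higher in the 4 comparisons of K48M with Col-0, 345 higher and 404 lower with 2 members in Col-0 submerged, and 475 lower with 1 member in K48M submerged. The causes were not tested.

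Leaving out each library in turn gave 8 to 9 members higher in each response. Over all genes, higher and lower counts in total RNA ran from 622 to 1677 and 324 to 1333 for Col-0 and from 503 to 1136 and 247 to 816 for K48M. In polysome RNA they ran from 544 to 1698 and 168 to 1369 for Col-0 and from 608 to 2042 and 208 to 1819 for K48M. K48M against Col-0 gave 1 to 9 higher and 0 to 1 lower in dark total, 1 to 2 higher and 0 to 8 lower in submerged total, 1 to 2 higher in submerged polysome and 1 in dark polysome. Polysome against total gave 0 to 1034 and 0 to 713 in Col-0 dark, 0 to 1411 and 0 to 1665 in Col-0 submerged, 0 to 1677 and 0 to 1637 in K48M dark and 0 to 1173 and 0 to 1246 in K48M submerged, with 0 to 2, 0 to 2, 0 to 1 and 0 to 2 members. The Col-0 change of loading gave 0 to 1 lower. The K48M total groups hold 1 library each and could not be left out. With 2 libraries in a group, small differences between lines or fractions are beyond these data.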
